A study of Homo sapiens with 8 samples.

Results

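Receptor tyrosine kinases are cell-surface proteins that bind a growth factor outside the cell and phosphorylate tyrosines inside it. The phosphorylated receptor recruits adaptors that pass the signal to RAS and the MAP kinases and to PI3 kinase and AKT. KIT binds stem cell factor and is best known from mast cells, melanocytes, germ cells and gastrointestinal stromal tumours, and it has also been studied as a drug target in Ewing sarcoma.

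The genes described here are 9 receptor tyrosine kinases relevant to sarcoma, chosen by name. A probe set named for that gene alone was available for 6 of the 9, namely KIT, MET, FGFR1, FGFR4, ERBB3 and ERBB4. In all, 14884 genes had such a probe set. PDGFRA, PDGFRB and ERBB2 were not analysed here. Each of the 6 had 1 named probe set, so no choice between probe sets was needed. The samples were cells of A673 and SK-ES1, established lines of Ewing sarcoma, each with a hairpin that targets RING1B (shRING1B) or a control hairpin that targets GFP (shGFP). RING1B is a catalytic subunit of Polycomb repressive complex 1, a histone-modifying complex. There were 4 groups of 2 arrays, 8 arrays in all. Whether the hairpin cells were pools or single clones is not given in the sources used here.

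The values are log2 expression values, so a difference of 1 is a 2-fold difference. The medians of the 8 arrays lay between 4.01 and 4.10, and arrays of 1 group correlated at 0.991 to 0.994 across the named genes. The 4 measured of 7 Ewing sarcoma markers, among them CD99 and NKX2-2, lay above the median of all probe sets in every group, with list means of 9.04 to 9.15 on the A673 arrays and 8.41 to 8.55 on the SK-ES1 arrays. Markers of other cell types above that median in each group were all 4 measured epithelial, all 3 muscle, 2 of 4 haematopoietic, 1 or 2 of 3 endothelial and 0 or 1 of 4 melanocytic markers. A value above this median does not show that a gene was expressed, because signal over background was not measured. The transcript that the hairpin targets was not analysed here, which leaves the labels without that check, and lines that lost RING1B to a different extent cannot be told apart from lines that responded differently. Separate cultures for the 2 arrays of a group are not stated in the labels, and the p-values therefore measure only the spread between these arrays, which may be technical.

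KIT and MET were the receptors of this list that limma called in any comparison, so the reference sequence just before their start sites is shown. GGAA is the core recognised by ETS factors such as the FLI1 part of EWSR1-FLI1, and it stands in capitals in either orientation (GGAA or TTCC). The sequences are RefSeq's for GRCh38.p14, given on the gene's own strand, which is the plus strand for both, at chr4:54657707-54657956 for KIT and chr7:116671946-116672195 for MET.
KIT: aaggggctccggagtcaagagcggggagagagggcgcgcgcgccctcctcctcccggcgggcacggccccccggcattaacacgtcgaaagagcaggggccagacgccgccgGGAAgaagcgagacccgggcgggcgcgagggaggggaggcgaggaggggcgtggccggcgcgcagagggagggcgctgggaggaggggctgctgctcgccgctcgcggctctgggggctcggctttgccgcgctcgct
MET: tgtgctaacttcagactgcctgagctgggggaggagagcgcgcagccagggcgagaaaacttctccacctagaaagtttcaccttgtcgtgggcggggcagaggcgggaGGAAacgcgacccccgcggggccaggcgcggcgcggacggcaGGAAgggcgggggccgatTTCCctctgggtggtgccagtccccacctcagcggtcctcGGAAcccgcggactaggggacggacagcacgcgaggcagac
The 250 bases held 1 match before KIT and 4 before MET, both strands counted. Of 35116 such windows in the RefSeq table, 92.7% held at least 1 match and 34.3% at least 4, with a median of 3. The doubled motif GGAAGGAA was in neither window and in 3.06% of all windows. These matches describe letters of the reference only.

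The next results compare shRING1B with shGFP within A673. KIT was lower under the RING1B hairpin, and of the 6 receptors it was the one that passed the test. KIT stood at 7.50 and 7.63 on the A673 shGFP arrays and at 7.01 and 6.98 on the shRING1B arrays. Both shRING1B arrays lay below both shGFP arrays. KIT fell by 0.57 on the log2 scale, with a standard error of 0.113 and a 95% interval of -0.82 to -0.31, a 1.48-fold decrease (limma adjusted p = 0.0264). The size of this change was above that of 95.5% of the 14884 genes when signs were ignored.

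In the same comparison 452 genes were lower and 105 higher, so 3.04% of all genes were called in the direction of KIT, 0.705% in the other direction and 3.74% in all. The call of KIT rested on every A673 array. Its adjusted p was 0.0671 and 0.224 when shGFP replicate 1 or 2 of A673 was left out, and 0.0809 and 0.0938 when shRING1B replicate 1 or 2 was left out. The log2 change stayed between -0.63 and -0.50 with each array left out. The call was also lost when the fit held no SK-ES1 array (adjusted p = 0.0753) and with all 48144 probe sets tested (0.0683).

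**Figure D1:**
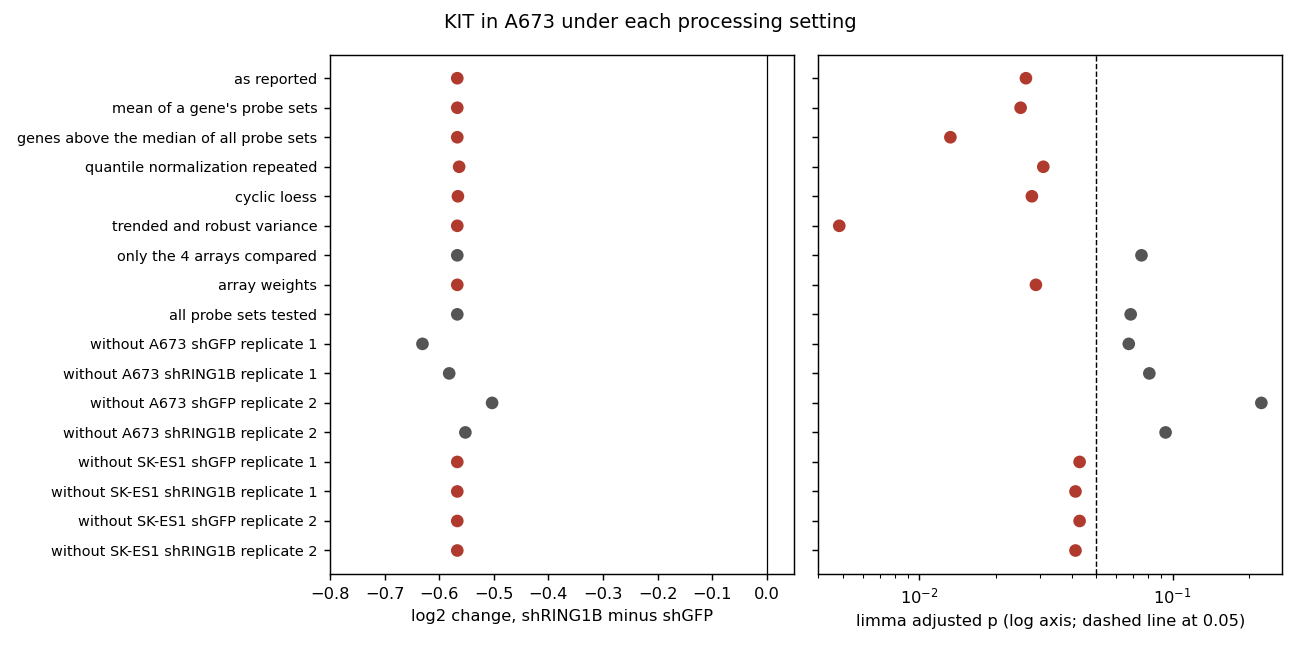
Each row is 1 setting of the analysis of KIT in A673, with the log2 change (shRING1B minus shGFP) on the left and limma's adjusted p on a log axis on the right; red points have an adjusted p under 0.05. The change keeps its direction in all 17 rows, and the 6 grey rows miss the threshold, 4 of them with 1 A673 array left out.

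MET, the receptor of hepatocyte growth factor, had higher values under shRING1B in A673, without passing the test. Its values were 4.72 and 4.73 under shGFP and 5.01 and 5.04 under shRING1B. Both shRING1B arrays lay above both shGFP arrays, and the difference of 0.30 had a 95% interval of 0.060 to 0.53 (limma adjusted p = 0.168). At an unadjusted p under 0.05, KIT and MET passed, 2 of 6 receptors, as did 18.9% of all genes. Over all 14884 genes, 49.9% had A673 groups that did not overlap, and among the receptors these were KIT and MET, 2 of 6.

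The 2 fibroblast growth factor receptors among the 6, FGFR1 and FGFR4, showed small differences in A673 that did not pass the test. FGFR1 stood at 6.11 and 6.23 under shGFP and at 6.17 and 6.15 under shRING1B, so the shRING1B arrays lay within the range of the controls. Its difference was -0.012, with an interval of -0.26 to 0.24 (adjusted p = 0.971), and the sign turned with quantile normalization repeated and without A673 shGFP replicate 2. FGFR4, the receptor that several endocrine FGFs use with a Klotho protein, stood at 5.31 and 5.13 under shGFP and at 5.18 and 4.96 under shRING1B. The FGFR4 groups overlapped, and the difference was -0.15 with an interval of -0.49 to 0.18 (adjusted p = 0.643).

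The neuregulin receptors did not pass the test in A673 either. ERBB3, a receptor with little kinase activity of its own that signals by pairing with other ERBB proteins, stood at 3.84 and 3.93 under shGFP and at 4.14 and 3.72 under shRING1B. One shRING1B array lay above and the other below both controls, and the difference was 0.042 with an interval of -0.29 to 0.38 (adjusted p = 0.91). The ERBB3 probe set lay above the array's own median on 4 of 8 arrays, while those of the other 5 receptors lay above it on all 8. ERBB4, an ERBB receptor with an active kinase, stood at 6.14 and 6.28 under shGFP and at 5.97 and 6.17 under shRING1B. Its groups overlapped, with a difference of -0.14 and an interval of -0.41 to 0.13 (adjusted p = 0.589).

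**Figure D2:**
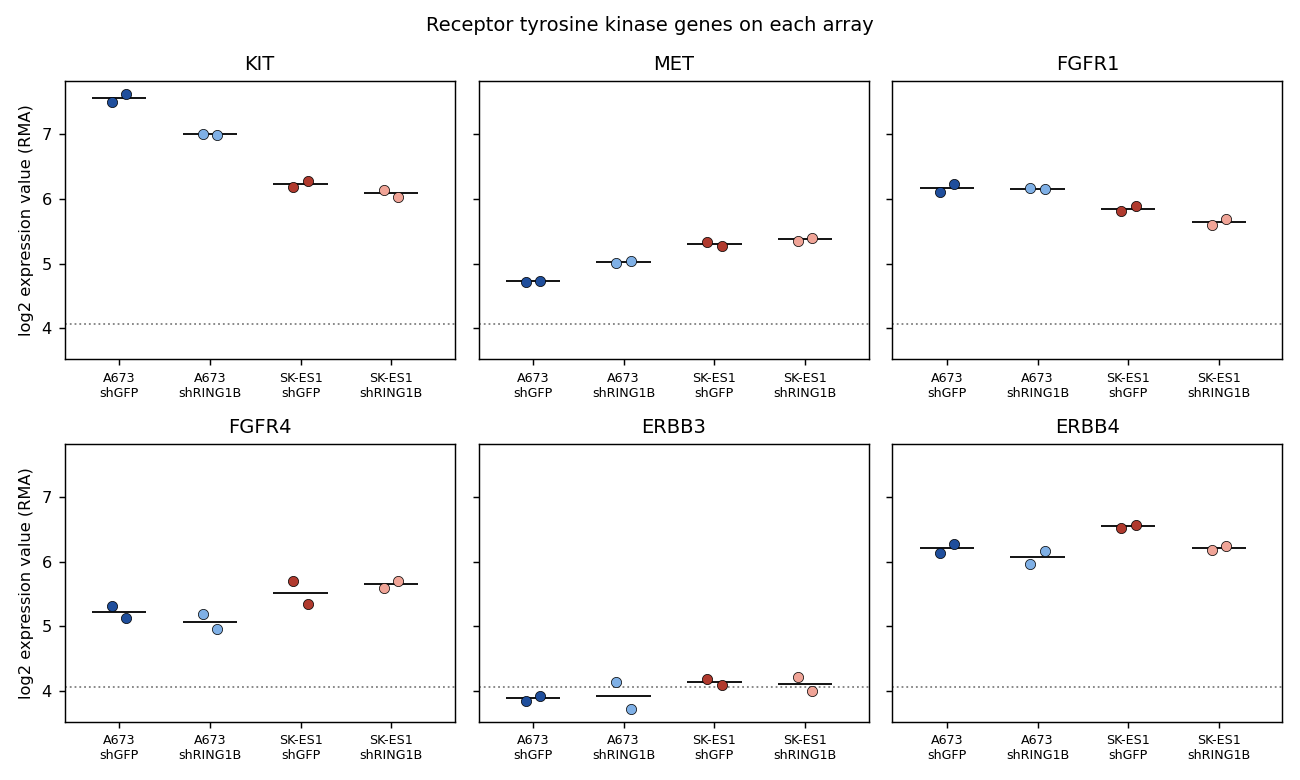
Each panel is 1 receptor gene, with the log2 expression value of every array as a point, the group mean as a bar and the median of all probe sets (4.06) as a dotted line. KIT steps down from A673 shGFP to SK-ES1 shRING1B, MET steps up, and the ERBB3 points lie around the dotted line; heights are not comparable between genes.

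In SK-ES1 the same hairpin comparison gave 0 calls among the 6 receptors with limma, where 0.0672% of all genes (10 of 14884) were called. At an unadjusted p under 0.05, 1 of the 6 passed, which was ERBB4, and 7.36% of all genes did. ERBB4 stood at 6.53 and 6.57 under shGFP and at 6.18 and 6.25 under shRING1B. The shRING1B arrays lay below the controls, and the difference was -0.34 with an interval of -0.60 to -0.069 (limma adjusted p = 0.591). In A673 the ERBB4 difference had the same sign, and the effects in the lines differed by -0.20 with an interval of -0.57 to 0.18 (adjusted p = 0.665).

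KIT values in SK-ES1 were 6.19 and 6.27 under shGFP and 6.14 and 6.03 under shRING1B. These groups did not overlap, but the difference was -0.14 with an interval of -0.40 to 0.11 (adjusted p = 0.861). FGFR1 stood at 5.82 and 5.89 under shGFP and at 5.60 and 5.70 under shRING1B, a difference of -0.21 with an interval of -0.45 to 0.043 (adjusted p = 0.763). MET stood at 5.33 and 5.28 under shGFP and at 5.35 and 5.40 under shRING1B, a difference of 0.073 with an interval of -0.16 to 0.31 (adjusted p = 0.934). For FGFR1, as for KIT and ERBB4, both shRING1B arrays lay below the controls, and for MET both lay above them.

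Thus the groups did not overlap for 4 of 6 receptors in SK-ES1, against 37.2% of all genes. FGFR4 stood at 5.71 and 5.34 under shGFP and at 5.60 and 5.70 under shRING1B, and ERBB3 at 4.18 and 4.10 against 4.21 and 3.99. In both of these receptors the groups overlapped, and their differences of 0.13 and -0.039 had an adjusted p of 0.917 and 0.979.

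The test of the difference between lines asks whether the hairpin effect in SK-ES1 differed from that in A673. For KIT this difference was 0.42, with a standard error of 0.16 and an interval of 0.066 to 0.78, and limma's adjusted p was 0.283. A larger fall of KIT in A673 than in SK-ES1 was therefore not called. None of the 6 receptors was called by limma in this test, and 1 of 6 (KIT) passed an unadjusted p under 0.05. Of all genes 0.786% were called and 13.7% passed an unadjusted p under 0.05. The difference was -0.22 for MET (adjusted p = 0.563), 0.28 for FGFR4 (0.616), -0.19 for FGFR1 (0.644) and -0.080 for ERBB3 (0.911).

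**Figure D3:**
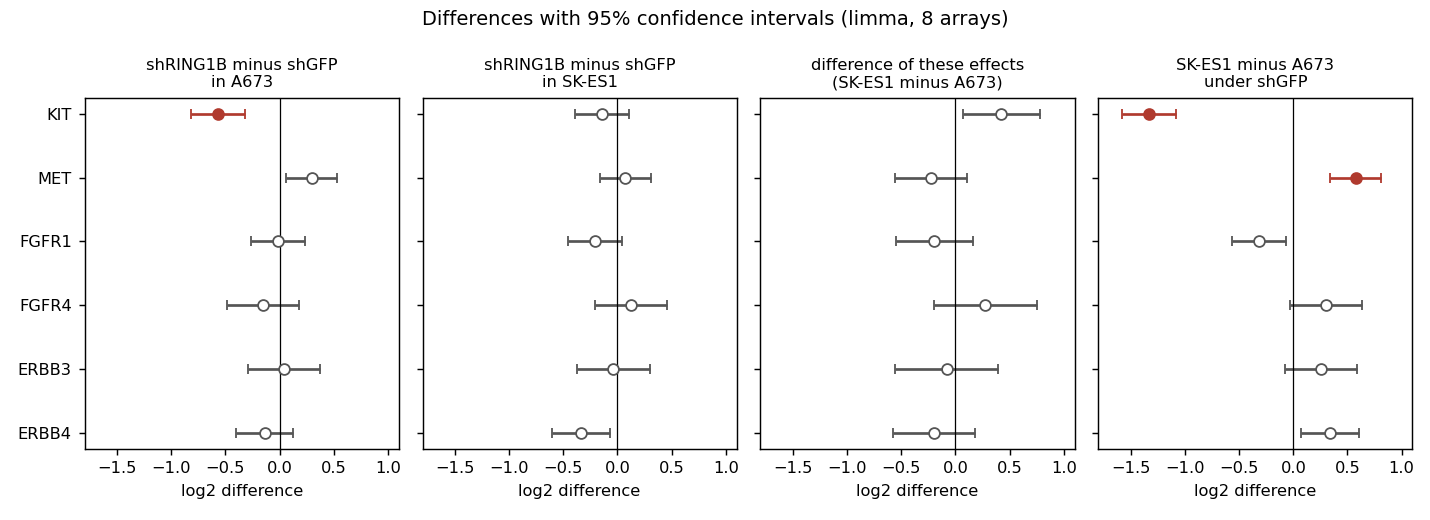
Log2 differences of the 6 receptors with 95% confidence intervals from limma, in 4 panels: the hairpin effect in A673, in SK-ES1, the difference of these effects and the line difference under shGFP. Filled red points have an adjusted p under 0.05; these are KIT at -0.57 in A673, and KIT at -1.33 and MET at 0.58 between the lines.

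Between the lines under the control hairpin, KIT was lower and MET higher in SK-ES1 than in A673. The hairpin comparison of each line uses the same shGFP arrays as this one. KIT differed by -1.33, with a standard error of 0.113 and an interval of -1.59 to -1.08, a 2.52-fold lower level in SK-ES1 (limma adjusted p = 1.22e-05). MET differed by 0.58, with a standard error of 0.106 and an interval of 0.34 to 0.81, a 1.49-fold higher level (adjusted p = 0.00218). Of the 6 receptors 1 was called higher and 1 lower, where 13.7% of all genes were higher and 17% lower, 30.7% in all. At an unadjusted p under 0.05, 4 of the 6 passed, with ERBB4 and FGFR1 beside them, against 39.7% of all genes. KIT and MET were called in each of the 16 alternative settings.

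The other 4 receptors had groups that did not overlap between the lines but missed the threshold. ERBB4 was 0.34 higher in SK-ES1, with an interval of 0.075 to 0.61 (adjusted p = 0.0546). FGFR1 was lower, with a difference of -0.32 and an interval of -0.57 to -0.068 (adjusted p = 0.0557). The adjusted p of ERBB4 ran from 0.0329 to 0.258 over the 16 alternatives, and 7 of them called it. With genes below the median of all probe sets left out, both were called, at an adjusted p of 0.0333 and 0.0334, and array weights called both as well. FGFR4 was 0.30 higher (adjusted p = 0.168) and ERBB3 0.25 higher (0.244). All 6 receptors had groups apart, where 64.8% of all genes did.

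Taking the 4 groups by mean, KIT was highest in A673 shGFP, followed by A673 shRING1B, SK-ES1 shGFP and SK-ES1 shRING1B. No neighbouring groups in this order overlapped, but the last step, 0.14, was the SK-ES1 hairpin difference that did not pass the test. Among all genes, 49.9% had hairpin groups apart in A673, 37.2% in SK-ES1, and 64.8% had lines apart under shGFP. The share of all genes apart at every step was not computed, so the orders of the receptors are a description only. The line gap of KIT was -0.91 between the shRING1B groups, against -1.33 between the shGFP groups, and the change of that gap is the difference between lines tested above. MET had the opposite order, lowest in A673 shGFP and highest in SK-ES1 shRING1B, and its line gap was 0.35 between the shRING1B groups. FGFR1 had the same order as KIT, with overlapping arrays in the A673 groups, while the ERBB3 groups overlapped at every step.

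Several protein-coding genes followed KIT closely over the 8 arrays. The 5 with the highest Pearson correlation to KIT were ZNF92 (0.998), UBR3, TBX5 (0.997 each), SEPTIN7 and ZNF138 (0.996 each), and 434 of 11915 genes exceeded 0.95. The 8 arrays come from 2 lines and 2 hairpins, which every gene shares, so the correlations are given as a description with no test. Of these 5, TBX5, a T-box transcription factor, fell by 1.52 in A673 (limma adjusted p = 0.000933), ZNF138 by 1.42 (0.000444), ZNF92 by 0.95 (0.00637) and the cytoskeletal gene SEPTIN7 by 0.71 (0.0157). UBR3, a ubiquitin ligase, had a change of -0.22 (adjusted p = 0.299). In SK-ES1 under shGFP their differences from A673 were -3.10 for TBX5, -2.91 for ZNF138, -2.12 for ZNF92, -1.79 for SEPTIN7 and -0.57 for UBR3. These genes were picked for following KIT over arrays that include the A673 hairpin groups. Their A673 changes and p-values are therefore no separate evidence about KIT.

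For MET the closest genes were the neuropeptide receptor QRFPR (0.993) and the inositol kinase ITPKA (0.991). QRFPR rose by 0.98 in A673 (adjusted p = 0.00577), and ITPKA had a change of 0.22 (0.31). These genes were picked for following MET over the same arrays, so their changes are no separate evidence about MET. For FGFR1 the closest were RPAIN (0.988) and ZNF841 (0.986), and for ERBB4 NDUFAF7 (0.986) and PRICKLE4 (0.978). FGFR4 was followed by PRPF19 (0.977) and PSPC1 (0.974), and ERBB3 by WNT2 (0.967) and ELN (0.961). Genes exceeding 0.95 numbered 162 for MET, 131 for FGFR1, 9 for FGFR4, 4 for ERBB4 and 3 for ERBB3.

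No listed ligand passed the test of the hairpin in either line. The ligand list was made for the 9 receptors chosen, so it includes ligands of PDGFRA and PDGFRB, which were not analysed. Of 31 measured ligand genes, limma called 0 in A673 and 0 in SK-ES1, with 3 and 2 at an unadjusted p under 0.05. Among all genes the shares called were 3.74% and 0.0672%, and 18.9% and 7.36% passed an unadjusted p under 0.05. At such shares, 0 calls among 31 genes are no result about the ligands. The median change was -0.037 in A673 and 0.033 in SK-ES1, against 0.012 and -0.0039 over all genes. The change of HBEGF in A673 ran from 0.26 to 0.86 with an array left out, and it was called without A673 shRING1B replicate 1 (adjusted p = 0.0492). The ligands with the smallest p were HBEGF at 0.56 (adjusted p = 0.15) and FGF3 at 0.30 (0.175) in A673, and NRG2 at -0.41 (0.611) and FGF3 at 0.26 (0.655) in SK-ES1.

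KITLG, which encodes stem cell factor, the ligand of KIT, stood at 4.72 and 4.27 in A673 shGFP and at 2.59 and 2.65 in SK-ES1 shGFP. In the shRING1B groups it stood at 4.79 and 4.38 in A673 and at 2.51 and 2.74 in SK-ES1. All A673 arrays lay above all SK-ES1 arrays, as they did for KIT, while the hairpin groups overlapped in both lines. KITLG was lower in SK-ES1 under shGFP, with a difference of -1.87 (limma adjusted p = 2.87e-05), and its hairpin differences were 0.093 in A673 (0.832) and 0.0040 in SK-ES1 (0.999). In SK-ES1 the KITLG values lay below the array median.

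Of the 31 ligands 5 were lower and 1 higher in SK-ES1 under shGFP, where 17% of all genes were lower and 13.7% higher, 30.7% in all. A share no larger than that of all genes is no result about the ligands. Their median difference was -0.015 against 0.0092 over all genes. Besides KITLG, the lower ones were PDGFA with a difference of -1.48, the ERBB ligand HBEGF with -1.75, FGF18 with -0.66 and PDGFC with -0.61, while PDGFD was higher by 2.08. HGF, the ligand of MET, stood between 2.73 and 3.16 on the 8 arrays, below the median of all probe sets throughout. NRG1, a ligand of ERBB3 and ERBB4, stood between 6.20 and 6.53 in A673 and between 6.55 and 6.82 in SK-ES1, and its line difference under shGFP was 0.30 (adjusted p = 0.109).

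Among the other receptor tyrosine kinases 3 of 39 measured fell in A673 and 0 rose, where 3.04% of all genes were called lower and 0.705% higher. EGFR stood at 5.05 and 5.09 under shGFP and at 4.24 and 4.52 under shRING1B, and fell by 0.69 (limma adjusted p = 0.0154). ROR1, a receptor of WNT5A, stood at 7.83 and 7.87 and then at 7.23 and 7.23, and fell by 0.62 (adjusted p = 0.0383). FGFR2 stood at 5.11 and 5.16 and then at 4.59 and 4.71, and fell by 0.49 (adjusted p = 0.0408). In each of the 3 the hairpin groups did not overlap, as in 49.9% of all genes. The 3 were picked as called, so this adds no support.

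The median change of these 39 receptors was -0.021 in A673 and 0.010 in SK-ES1, where limma called 0 and 0 passed an unadjusted p under 0.05. Of all genes in SK-ES1, 0.0672% were called and 7.36% passed an unadjusted p under 0.05. The calls of EGFR, ROR1 and FGFR2 in A673 were lost in 4, 8 and 13 of 16 alternatives. The highest adjusted p of each came without A673 shGFP replicate 2, at 0.149, 0.236 and 0.261. Without A673 shGFP replicate 1 they were 0.0617, 0.124 and 0.125, and without A673 shRING1B replicate 1 they were 0.0769, 0.117 and 0.15. Without A673 shRING1B replicate 2 EGFR kept its call (0.0154), while ROR1 had 0.114 and FGFR2 0.0796. FGFR2 also missed the threshold without any 1 SK-ES1 array, and ROR1 without either SK-ES1 shGFP array. EGFR and FGFR2 had values of 0.14 and 0.12 in SK-ES1, and the differences between lines were 0.83 (adjusted p = 0.0623) and 0.61 (0.124). On the SK-ES1 arrays EGFR stood between 3.58 and 3.73 and FGFR2 between 3.57 and 3.72, below the median of all probe sets, so a fall in SK-ES1 might not be measurable for either gene.

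Genes that dampen receptors, their co-receptors and the adaptors below them were not called in either hairpin comparison. Of 13 measured co-receptors and negative regulators, limma called 0 in A673 and 0 in SK-ES1, with 3 and 3 at an unadjusted p under 0.05, and median changes of -0.026 and 0.056. Among all genes 3.74% and 0.0672% were called, and 18.9% and 7.36% passed an unadjusted p under 0.05. At such shares, 0 calls in lists this short are no result about these genes. SPRY2, a feedback inhibitor of FGF signals, stood at 5.82 and 6.01 in A673 shGFP and at 5.32 and 5.44 in A673 shRING1B, a difference of -0.53 (adjusted p = 0.0813). Of 24 measured adaptors and kinases, limma called 0 in either line, with 5 and 0 at an unadjusted p under 0.05 in A673 and SK-ES1, and median changes of -0.018 and -0.032. The adaptor SHC3 had a difference of -0.62 in A673 (adjusted p = 0.0582), and the adaptor GRB10 one of -0.59 (0.0667). SHC3 was called in 4 of 16 alternatives (lowest adjusted p 0.0317), GRB10 in 3 (0.0401) and SPRY2 in 1 (0.0498).

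Transcripts known to follow MAP kinase activity separated the lines. Of 15 measured, 12 were lower and 0 higher in SK-ES1 under shGFP, with a median of -1.12 against 0.0092 over all genes. Among all genes 17% were called lower and 13.7% higher, 30.7% in all. This list was chosen with earlier results of these data known. DUSP6, a phosphatase that switches off ERK, stood at 8.42 and 8.41 in A673 shGFP and at 6.13 and 5.97 in SK-ES1 shGFP, a difference of -2.37 (limma adjusted p = 4.01e-07). The difference was -2.06 for SPRY4, -2.02 for EPHA2, -1.72 for SPRY2, -1.14 for ETV1 and -1.02 for EPHA4. SPRY2 and SPRY4 are also among the negative regulators, and EPHA2 and EPHA4 among the other receptor kinases.

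Under the RING1B hairpin 1 of the 15 MAP kinase output genes rose in A673 and 0 fell. Among all genes 0.705% were called higher and 3.04% lower. The median of the 15 was 0.18 against 0.012 over all genes. Of their values 11 were above 0 and 4 below, with SPRY2 the lowest at -0.53 (limma adjusted p = 0.0813). The gene that rose was ETV4, an ETS factor, at 5.66 and 5.47 under shGFP and at 6.02 and 6.45 under shRING1B. Its change of 0.67 had an adjusted p of 0.0497, and the call was lost in 10 of 16 alternatives. These include leaving out any 1 array except A673 shRING1B replicate 1, with an adjusted p of 0.105 and 0.322 when A673 shGFP replicate 1 or 2 was left out and 0.194 for A673 shRING1B replicate 2. In SK-ES1 limma called 0 of the 15, with 1 at an unadjusted p under 0.05 and a median of 0.030. Of all genes there, 0.0672% were called and 7.36% passed an unadjusted p under 0.05. DUSP6 stood at 6.38 and 6.51 in SK-ES1 shRING1B, a difference of 0.39 from the controls (adjusted p = 0.53).

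**Figure D4:**
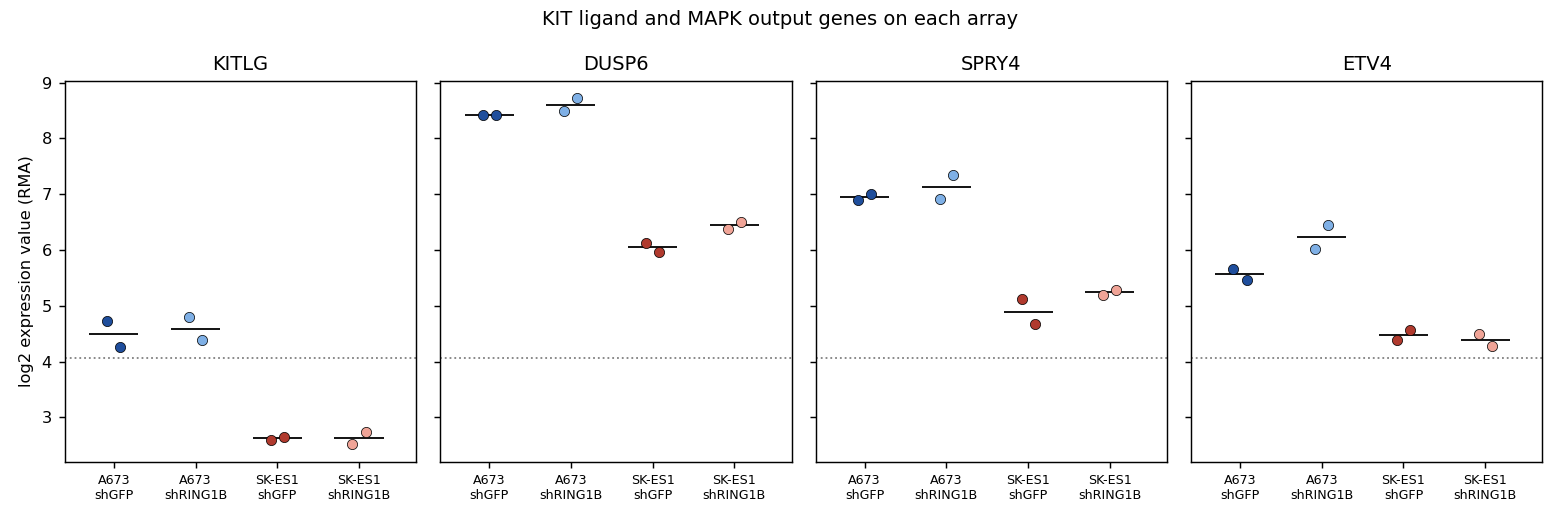
Log2 expression values of the KIT ligand KITLG and 3 MAP kinase output genes on each array, with the group mean as a bar and the median of all probe sets as a dotted line. All A673 points lie above all SK-ES1 points for each gene, and ETV4 is higher in A673 shRING1B than in A673 shGFP.

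Below the receptors, 6 of 24 adaptors and kinases were lower and 3 higher in SK-ES1 under shGFP, with a median of -0.17, where 17% of all genes were lower and 13.7% higher. Counts this near the share of all genes are no result about the adaptors and kinases. SHC3 had a difference of -1.99, and the docking proteins GAB2 and GAB1 of -1.55 and -1.20, while the kinase ARAF was higher by 0.67. Of the 13 co-receptors and negative regulators 4 were lower and 2 higher, with a median of -0.10. In all 6 of the 13 were called, against 30.7% of all genes, and the list as a whole was not tested. LRIG1, which promotes the degradation of ERBB receptors and MET, was higher by 0.77 (adjusted p = 0.00119), and the cytokine signalling inhibitor SOCS1 was lower, with a difference of -1.03 (0.00136).

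Markers of cell types known for KIT were looked at beside the KIT difference between the lines. Of 4 measured haematopoietic markers 1 was called lower in SK-ES1 under shGFP, and the other 3 had values above 0, with a list median of 0.12. Among all genes 17% were called lower and 13.7% higher, 30.7% in all. The marker called was the mast cell tryptase TPSAB1, with a difference of -0.69 (limma adjusted p = 0.0095), and that call was lost without A673 shGFP replicate 2 or SK-ES1 shGFP replicate 2. The list means were 4.77 to 4.86 in A673 shGFP and 4.68 to 4.84 in SK-ES1 shGFP, and CPA3, a mast cell protease, lay between 2.90 and 3.18 on all 8 arrays. Of 4 melanocytic markers 2 were higher in SK-ES1, MITF by 0.37 and PMEL by 0.57, where 13.7% of all genes were called higher. The list means were 3.54 to 3.56 in A673 shGFP and 3.73 to 3.84 in SK-ES1 shGFP. MITF stood between 3.30 and 4.06, above the array median on 1 of 8 arrays, so its difference is between dim values. MITF lost its call in 8 of 15 alternatives, and PMEL without A673 shGFP replicate 2 (adjusted p = 0.159) or SK-ES1 shGFP replicate 1 (0.146). The part of these markers in the KIT difference was not tested.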

How the data were processed

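Gene expression was measured on 8 microarrays from 30 ng of total RNA each. The deposited values are log2 values per probe set that the authors made with RMA, per the submitters' processing notes, which also name limma; no version is given, and the build and array annotation are not given in the sources used here. RMA's quantile step hides a change shared by most genes. Of 48144 probe sets, 16098 had 1 gene symbol in the platform table and were kept. The remaining 32046 had no symbol or several, and these cases were not counted apart. Each of 14884 genes was represented by its brightest probe set on average. Groups came from the labels, and replicate numbers, given in accession order, only name arrays.

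A model of 4 group means was fitted to all genes with limma 3.58.1 in R 4.3.3, with 4 residual and 6 prior degrees of freedom. Tests are two-sided, p-values were adjusted by Benjamini-Hochberg over all genes of a comparison, and called means an adjusted p under 0.05. "Rose" and "fell" are used of called genes. The script was tested on simulated data. No scanner files were used, so signal over background was not measured, and precision is limited by having 2 arrays a group.

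The members and lists were chosen with earlier results of these data known. Named genes are the 6 receptors, per list up to 6 called genes (or else 2) with the smallest p, and the genes most correlated with each receptor. CPA3, HGF, NRG1 and the hairpin values of line-called genes were added after their values were seen. Alternatives changed the probe set rule, the filter, the normalization, the variance model, array weights, the arrays and the genes tested.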

Additional observations from a re-analysis of the deposited data

How the results depend on the processing

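Of 374 receptor values recomputed under the alternatives, 350 kept their direction and side of the threshold, 6 lost a call (KIT in A673), 9 gained one (ERBB4 and FGFR1 between the lines) and 9 changed sign without a call. The receptors called in A673, 1, numbered 0 with the 4 A673 arrays alone or all probe sets tested, and 0 to 1 with an array left out. Those called between the lines, 2, numbered 4 with dim genes left out or array weights, 3 with quantile normalization repeated, cyclic loess or the trended variance model, and 2 to 3 with an array left out. The sign changes were of FGFR1 in A673 (0.021 with quantile normalization repeated, -0.069 to 0.046 with an array left out) and, with an array left out, of ERBB3 in A673 (-0.17 to 0.25), in SK-ES1 (-0.15 to 0.069) and in the difference between lines (-0.29 to 0.13), and of FGFR4 in SK-ES1 (-0.059 to 0.31). ETV4 in SK-ES1 ran from -0.19 to 0.017 in the same way. The cause was not tested. Of 38 named list and receptor calls between the lines, 31 were kept in each alternative.

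The count of all called genes in A673, 557, was 1052 with a trended, robust variance model, 213 with the A673 arrays alone and 101 to 434 with an array left out. In SK-ES1 the count of 10 was 21 with dim genes left out, 34 with the trended model, 4 with all probe sets tested and 2 to 7 with an array left out. For the difference between lines the count of 117 was 179, 281 and 60 under the same 3 settings and 0 to 72 with an array left out; it was 0 by limma without SK-ES1 shRING1B replicate 1, with 1833 at an unadjusted p under 0.05. Between the lines it was 4572, and 7224 with all probe sets tested. No paired analysis was possible because the labels give no replicate numbers that pair arrays across groups. With 2 arrays a group and no scanner files, dim probe sets such as those of ERBB3, HGF and, in SK-ES1, EGFR, FGFR2 and KITLG are limited in what they can show.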

Other observations

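The other receptor tyrosine kinases differed widely between the lines under shGFP. Of 39 measured, 17 were lower and 6 higher in SK-ES1, with a median of -0.28 against 0.0092 over all genes. Among all genes 17% were called lower and 13.7% higher, 30.7% in all. This list, too, was chosen with earlier results of these data known. DDR2, a collagen receptor, differed by -2.11 (limma adjusted p = 3.47e-07), ROR2, a receptor of WNT5A, by -2.10 (1.21e-06) and EPHA2, an ephrin receptor, by -2.02 (1.69e-06). FGFR2 differed by -1.55 and EGFR by -1.48, while ALK was higher by 1.61 (2.48e-06). These 6 calls were kept in each of the 16 alternatives. FGFR2 and EGFR stood at 3.57 to 3.60 in SK-ES1 shGFP, below the median of all probe sets, and signal over background was not measured, so the size of these differences is less certain than their direction.

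FGFR3 was singled out after its values were seen, as the FGF receptor outside the 9 listed genes that was higher in SK-ES1. It stood at 5.53 and 5.59 in A673 shGFP and at 7.32 and 7.20 in SK-ES1 shGFP, a difference of 1.70 (limma adjusted p = 1.57e-05). FGFR2 stood at 5.11 and 5.16 against 3.57 and 3.60 on the same arrays, so these receptors differed in opposite directions between the lines.

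Of 4 measured epithelial markers 1 was called lower and 0 higher between the lines, with 2 values above 0 and 2 below 0. Among all genes 17% were called lower and 13.7% higher, so this count is no result about the list. KRT18, an epithelial keratin, was the one called lower in SK-ES1 than in A673 under shGFP, with a difference of -2.38 (limma adjusted p = 8.24e-07). In A673 it rose by 0.59 under the RING1B hairpin (adjusted p = 0.0487), a call lost in 11 of 16 alternatives. It was 1 of 4 epithelial markers called there, where 0.705% of all genes were called higher. Of the other epithelial markers in A673, KRT8 had a value of 0.41 (adjusted p = 0.164), EPCAM of -0.15 (0.664) and KRT19 of -0.079 (0.89). Leaving out any 1 of the 8 arrays ended the KRT18 call, with the highest adjusted p, 0.345, without A673 shGFP replicate 2.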
